A study of Mus musculus with 27 samples.

Results

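The transcripts followed here encode inflammatory cytokines and inflammasome components: Tnf, Il1a, Il1b, Il1rn, Il6, Il10, Il18, Nlrp3, Nos2 and Ptgs2. They were chosen by name and not by a cut on their values, as 10 of the 50559 rows of the deposited count matrix. Earlier results of these data were known when they were chosen. Macrophages were grown from the bone marrow of female C57BL/6 mice, 3 to 4 months old, either wild type (WT) or lacking the mitochondrial chaperone TRAP1 (TRAP1 KO). Unpolarized cells are called Mφ (M0 in the labels), and cells given IL-4 at 10 ng/mL for 24 h are called M2. Both were then held for 48 h in control medium (DMEM) or in medium conditioned by malignant peripheral nerve sheath tumour cells (MPNST-CM), which gives 8 groups. Each group had 3 libraries in the batch that the labels call 1, without saying what a batch is, and the comparisons use those 24 libraries. The mouse behind each library is not named, so the spread between libraries may be technical in part.

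IL-1α, IL-1β and IL-18 belong to the IL-1 family of cytokines. IL-1β and IL-18 are made as inactive precursors that caspase-1 cuts, and NLRP3 is a sensor that assembles the inflammasome in which caspase-1 is activated. The IL-1 receptor antagonist, encoded by Il1rn, occupies the IL-1 receptor without signalling. TNF, IL-6, inducible nitric oxide synthase (Nos2) and cyclooxygenase 2 (Ptgs2) are classical products of activated macrophages, and IL-10 restrains that activation. The counts are of 3′ mRNA tags, so they bear on transcripts and not on cleaved or secreted protein.

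Library totals ran from 7037684 to 9089792 counts. Levels are given as CPM, counts of a gene per 1000000 counts of the library, scaled by the trimmed mean of M values (TMM), with SD over 3 libraries. Trap1 had 83 to 144 counts in each WT library and 0 in each of the 12 TRAP1 KO libraries. Xist, the RNA of the inactive X chromosome, had 2079 to 4010 counts in WT libraries but 0 to 9 in TRAP1 KO libraries, although all mice are labelled female. In batch 1 the genotype and this difference in Xist cannot be told apart. The 8 macrophage markers examined summed to 7893 to 12321 CPM in every library, against at most 21.6 CPM for 9 neutrophil markers, 19.7 for 5 dendritic cell markers, 12.6 for 9 Schwann cell or fibroblast markers, 5.31 for 5 mast cell or basophil markers, 3.99 for 4 B cell markers and 0.414 for 4 T cell markers. The dendritic cell sum was highest in TRAP1 KO M2 in MPNST-CM (17.2 to 19.7 CPM), and its part in the levels there was not tested. Bulk counts cannot tell fewer cells expressing a gene from less RNA per cell. Within the Mφ groups and M2 WT cells in MPNST-CM, replicate 1 stood apart from replicates 2 and 3: chi-square per degree of freedom was 16.04 to 37.4 for pairs with replicate 1 and 2.11 to 3.42 for replicate 2 against 3. No pair of libraries agreed within sampling noise.

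There were also 3 libraries of batch 2, which the comparisons leave out. The library labelled M2 TRAP1 KO in control medium, replicate 4, had a Spearman correlation across genes of 0.914 with the mean of its labelled group, and its highest, 0.970, with Mφ TRAP1 KO in MPNST-CM. The library labelled M2 TRAP1 KO in MPNST-CM, replicate 4, had 0.949 with its labelled group and its highest, 0.983, with M2 WT in control medium. The Mφ WT control library of batch 2 was closest to its own label, at 0.988. On a scaling over all 27 libraries, the library labelled M2 TRAP1 KO in control medium, replicate 4, held 129 CPM of Il1b, where the 3 libraries of batch 1 with that label held 3.24 to 5.97. Its Il18 was 78.6 CPM against 5.42 to 7.48, and its Nlrp3 was 74.2 against 11 to 18.2. With the 3 batch 2 libraries added, 30 of the 72 calls among the members held, 34 lost significance and 8 changed sign. Calls over all genes fell as well, for genotype by medium in M2 from 2751 to 180. For Il1b the call that held was the rise with MPNST-CM in TRAP1 KO Mφ, and for Il18 and Nlrp3 it was the IL-4 difference in WT control cells. With only the Mφ WT library added (25 libraries, a setting chosen after the data were seen), 70 of the 72 held. Calls named below therefore rest on batch 1, and the values that changed sign or shrank most are given beside the result.

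Promoter sequences are shown for 4 transcripts whose levels moved apart in MPNST-CM: Il1b and Il18, which were higher in TRAP1 KO cells there, and Il1rn and Tnf, which were lower. They are RefSeq windows on GRCm38.p6 and not on mm39, the build the labels give for the counts, and each runs from 250 bases before to 50 bases after the annotated start. Capitals mark matches to the motifs searched.
Il1b (chr2:129371090-129371389, minus strand): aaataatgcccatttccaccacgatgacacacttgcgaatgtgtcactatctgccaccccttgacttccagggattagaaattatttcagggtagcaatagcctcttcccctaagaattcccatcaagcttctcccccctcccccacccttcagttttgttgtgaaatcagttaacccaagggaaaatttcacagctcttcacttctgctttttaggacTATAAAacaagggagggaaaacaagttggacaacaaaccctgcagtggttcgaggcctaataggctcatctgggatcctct
Il18 (chr9:50554450-50554749, plus strand): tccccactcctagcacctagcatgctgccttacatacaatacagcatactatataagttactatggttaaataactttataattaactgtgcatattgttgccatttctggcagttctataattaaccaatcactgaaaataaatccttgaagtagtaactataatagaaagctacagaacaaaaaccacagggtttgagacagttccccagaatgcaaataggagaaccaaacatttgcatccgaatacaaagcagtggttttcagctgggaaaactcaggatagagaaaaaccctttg
Il1rn (chr2:24336610-24336909, plus strand): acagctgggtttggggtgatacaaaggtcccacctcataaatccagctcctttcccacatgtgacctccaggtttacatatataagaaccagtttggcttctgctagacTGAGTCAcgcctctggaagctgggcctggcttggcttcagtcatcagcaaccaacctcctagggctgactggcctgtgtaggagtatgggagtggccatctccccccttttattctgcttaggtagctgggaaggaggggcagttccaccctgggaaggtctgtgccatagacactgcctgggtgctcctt
Tnf (chr17:35201958-35202257, minus strand): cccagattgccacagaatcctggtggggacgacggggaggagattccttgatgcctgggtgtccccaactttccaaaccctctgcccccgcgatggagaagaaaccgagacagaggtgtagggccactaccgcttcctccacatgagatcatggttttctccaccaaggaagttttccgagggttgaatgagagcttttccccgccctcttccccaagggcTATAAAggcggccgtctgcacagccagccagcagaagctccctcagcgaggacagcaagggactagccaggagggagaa

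The capitals in the Il1b and Tnf windows are a TATA box (TATAAA), which begins 31 and 29 bases before the start. In the Il1rn window they are an AP-1 element (TGANTCA), 141 bases before the start. The Il18 window held none of the 5 motifs. The other motifs were an NF-kB element (GGNNTTTCC), a cAMP response element (TGACGTCA) and the hypoxia response core (ACGTG). All were read on both strands except TATA, and AP-1, the cAMP element and part of the hypoxia matches read alike on both. RefSeq gave 11 windows for 8 of the 10 members. An NF-kB match stood in both Nlrp3 windows, beginning 94 and 122 bases before the start, in the Il6 window and in the other 2 Il1rn windows. Those 2 Il1rn windows overlap and share the same match. It begins 50 bases before the start of the one and lies after the start of the other. Il6 and Il1a also held an AP-1 match, Il1a a TATA box, and Ptgs2 and the upstream Nlrp3 window a hypoxia core. Of 32841 promoters of this length, 5.83% held the NF-kB letters, 7.81% AP-1, 1.79% the cAMP element, 19.6% the hypoxia core and 8.32% TATA. These are matches of letters, not bound sites.

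**Figure D1:**
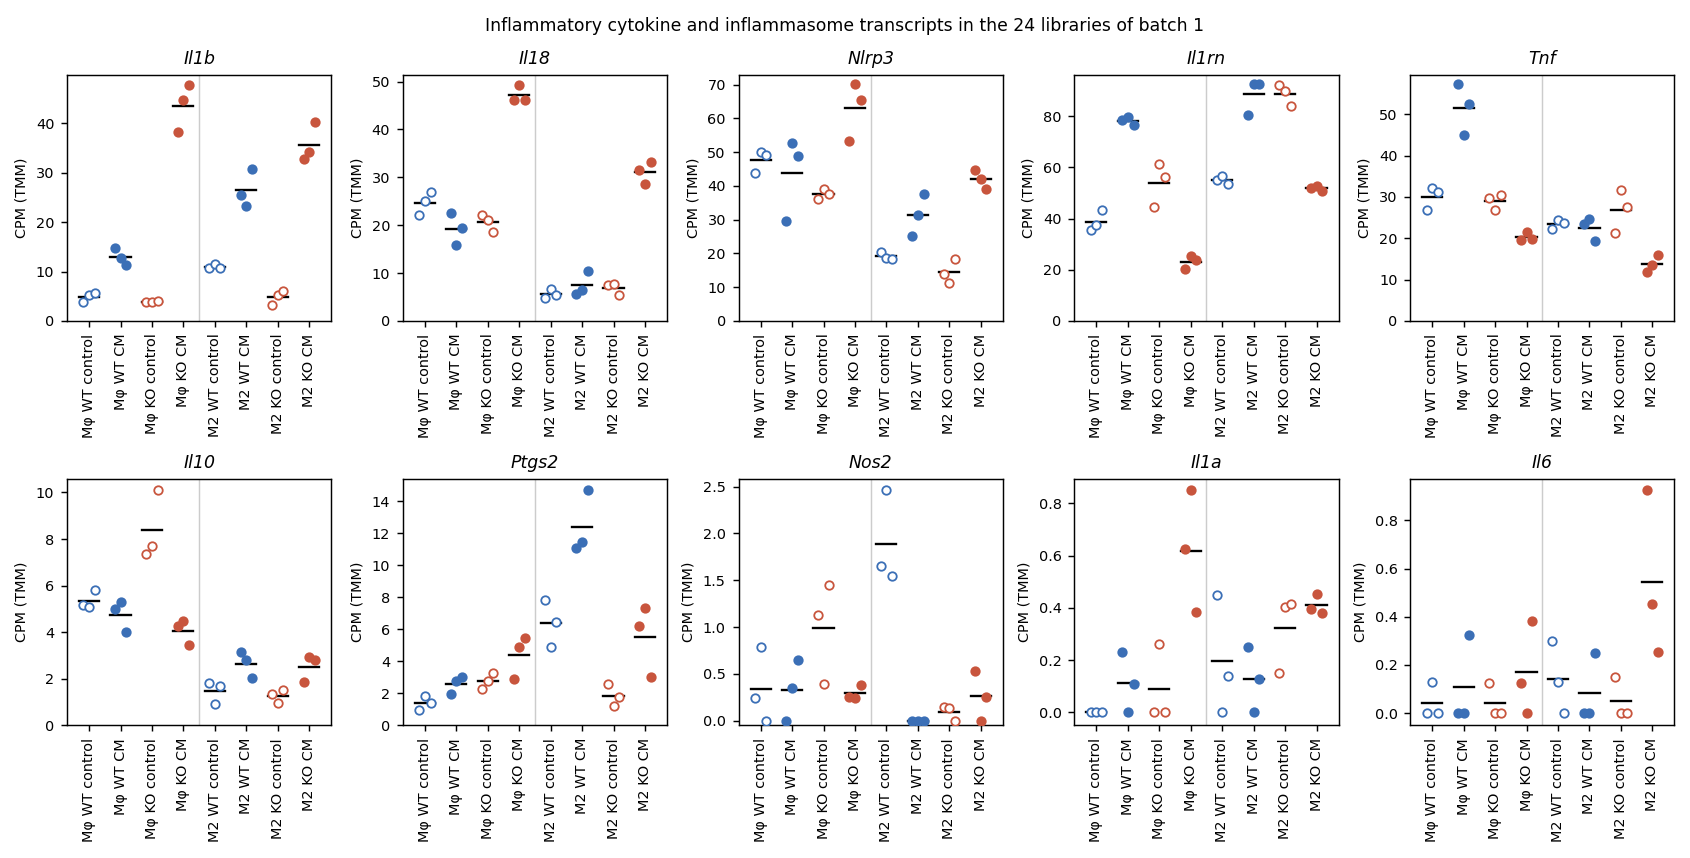
Levels of the 10 transcripts in CPM (TMM) for each of the 24 batch 1 libraries. Open circles are control medium, filled circles MPNST-CM, blue WT, red TRAP1 KO, and black bars the means of 3 libraries. Il1b and Il18 are highest in Mφ TRAP1 KO cells in MPNST-CM, with means of 43.5 and 47.1 CPM, where Il1rn has its lowest mean, 23.2 CPM.

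None of the 10 transcripts stayed under 3 counts in every library. Il1a and Il6 came closest, with at most 7 counts in any library. Il1a was under 3 counts in 15 of 24 libraries and Il6 in 20 of 24, and neither passed the filter on low counts. Nos2 was under 3 counts in 13 libraries and at 0 in 7, and passed the filter only through M2 WT cells in control medium, the group where it was high. Its counts are therefore given with no test against that group. The other 7 transcripts, Tnf, Il1b, Il1rn, Il10, Il18, Nlrp3 and Ptgs2, had at least 7 counts in each library. Counts of called transcripts below are out of these 7.

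MPNST-CM raised Il1b in both genotypes and both cell states. In WT Mφ, 3 of 7 rose (Il1b, Il1rn and Tnf) and none fell, where 11.3% of all 13614 genes tested rose and 9.96% fell. In TRAP1 KO Mφ, 3 rose (Il1b, Il18 and Nlrp3) and 3 fell (Il1rn, Tnf and Il10), against 14.8% and 18.1% of all genes. In WT M2, 5 rose (Il1b, Il1rn, Nlrp3, Ptgs2 and Il10) and none fell, against 11.2% and 13.3%. In TRAP1 KO M2, 5 rose (Il1b, Il18, Nlrp3, Ptgs2 and Il10) and 2 fell (Il1rn and Tnf), against 16.7% and 20.2%. Beside the Mφ responses, the 4 IL-4 response markers Arg1, Chil3, Retnla and Mrc1 summed to 681 to 753 CPM in control medium, 1171 to 1349 CPM in WT cells in MPNST-CM and 2545 to 2665 CPM in TRAP1 KO cells in MPNST-CM, with no IL-4 given. Of these 4, 1 was called higher with MPNST-CM in WT Mφ and 2 in TRAP1 KO Mφ, and 0 lower in either. Over all genes 11.3% and 14.8% were higher. Mrc1 alone held at least 516 CPM in every library, so the sum does not show that the 4 rose together. The part of these markers in the cytokine levels was not tested.

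The response to MPNST-CM differed by genotype for 5 of the 7 transcripts in Mφ and 5 of 7 in M2, by the test of the difference itself. In Mφ it was larger in TRAP1 KO cells for Il1b, Il18 and Nlrp3 (8.17% of all genes were called in this direction) and smaller for Il1rn and Tnf (11.5%). In M2 it was larger for Il1b, Il18 and Nlrp3 (9.36% of all genes) and smaller for Il1rn and Tnf (10.8%). For Il10 and Ptgs2 no difference passed the threshold in either cell state.

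**Figure D2:**
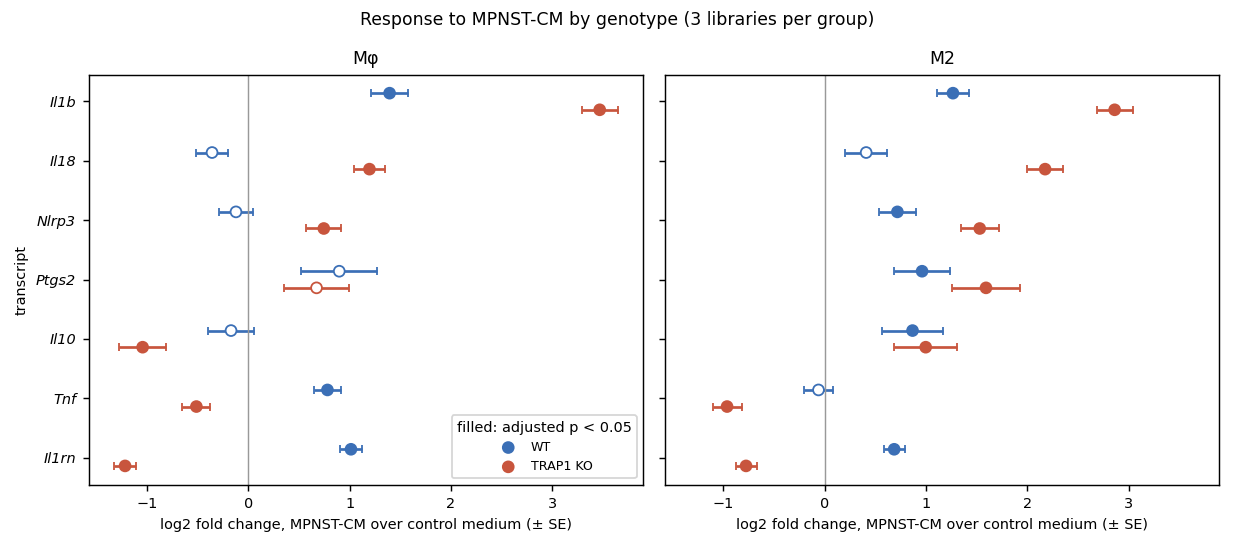
Log2 fold change of MPNST-CM over control medium with SE, in Mφ (left) and M2 (right), for the 7 transcripts above the count floor in every library. Blue is WT, red TRAP1 KO, and filled points passed an adjusted p of 0.05. Il1rn rose by 1.01 in WT Mφ and fell by 1.22 in TRAP1 KO Mφ, while Il1b rose in both, by 1.39 and 3.47.

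Il1b, the precursor of IL-1β, had the largest ratio of highest to lowest group mean, 11.1, among the 7 transcripts with counts in every library. In Mφ in control medium it was at 3.80, 5.21 and 5.70 CPM in WT libraries and at 3.88, 3.80 and 4.08 CPM in TRAP1 KO libraries. In MPNST-CM it was at 14.7, 12.8 and 11.3 CPM in WT and 38.2, 44.6 and 47.6 CPM in TRAP1 KO Mφ. The genotypes overlapped in control medium and were apart in MPNST-CM. The rise was 2.63-fold in WT Mφ (log2 fold change 1.39 ± 0.18 SE, adjusted p = 2.44e-06) and 11.1-fold in TRAP1 KO Mφ (3.47 ± 0.18, adjusted p = 1.35e-14). The rises differed by 2.07 ± 0.26 on the log2 scale (adjusted p = 9.18e-07).

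In M2 cells Il1b was at 10.7, 11.5 and 10.8 CPM in WT control libraries and at 3.30, 5.22 and 6.07 CPM in TRAP1 KO control libraries. In MPNST-CM it reached 25.4, 23.3 and 30.8 CPM in WT and 32.7, 34.1 and 40.2 CPM in TRAP1 KO M2. So TRAP1 KO M2 cells started lower and ended higher. In control medium the knockout was 2.25-fold lower (-1.17 ± 0.19, adjusted p = 7.96e-05), and in MPNST-CM it was 1.35-fold higher (0.43 ± 0.15, adjusted p = 0.0251). The second call was lost when WT replicate 1 or 2 or TRAP1 KO replicate 3 in MPNST-CM, TRAP1 KO replicate 2 in control medium, or any WT control replicate was left out (adjusted p 0.0518 to 0.136). MPNST-CM raised Il1b by 1.27 ± 0.16 in WT M2 and by 2.86 ± 0.18 in TRAP1 KO M2, a difference of 1.60 ± 0.24 (adjusted p = 1.59e-05). With the batch 2 libraries this difference became -1.52, the rise in TRAP1 KO M2 -0.20 and the genotype difference 1.73 in control medium and 0.21 in MPNST-CM. Over the 8 groups Il1b was highest in TRAP1 KO Mφ and M2 in MPNST-CM, which overlapped, then in M2 WT and Mφ WT in MPNST-CM. Mφ WT in MPNST-CM overlapped M2 WT in control medium, and the other 3 control groups were lowest and overlapped.

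Il1a, the other agonist precursor of the pair, had 5, 7 and 3 counts in Mφ TRAP1 KO libraries in MPNST-CM and 3, 4 and 3 in M2 TRAP1 KO libraries in MPNST-CM. No library of Mφ WT in control medium had a count, and the remaining 5 groups had 0 to 3 counts per library. In MPNST-CM the TRAP1 KO libraries lay above those of WT, which had 0 to 2 counts, in both cell states. Each group overlapped the next in order of level, and no test was made at this depth.

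Il1rn, the receptor antagonist, rose with MPNST-CM in WT cells, as Il1b did, and fell in TRAP1 KO cells. In Mφ in control medium it was at 35.3, 37.7 and 43.3 CPM in WT and 44.5, 61.4 and 56.2 CPM in TRAP1 KO libraries. In MPNST-CM it was at 78.6, 79.8 and 76.3 CPM in WT and 20.5, 25.4 and 23.7 CPM in TRAP1 KO libraries. The medium thus turned a group slightly above WT into one well below it, with no overlap in either medium. Il1rn rose 2.02-fold in WT Mφ (1.01 ± 0.10, adjusted p = 6.01e-08) and fell 2.33-fold in TRAP1 KO Mφ (-1.22 ± 0.11, adjusted p = 9.10e-10). The difference of -2.23 ± 0.15 (adjusted p = 1.94e-11) was the largest in magnitude among the 7 transcripts with counts in every library.

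In M2 cells Il1rn was at 54.8, 56.6 and 53.6 CPM in WT control, 80.6, 92.3 and 92.6 CPM in WT MPNST-CM, 92.3, 89.8 and 84.0 CPM in TRAP1 KO control and 51.8, 52.5 and 50.9 CPM in TRAP1 KO MPNST-CM libraries. The genotypes again changed places. It rose by 0.68 ± 0.10 in WT (adjusted p = 1.14e-05) and fell by 0.78 ± 0.10 in TRAP1 KO cells (adjusted p = 8.09e-07), a difference of -1.46 ± 0.15 (adjusted p = 2.49e-08). TRAP1 KO cells were higher in control medium in Mφ (0.48 ± 0.11, adjusted p = 0.00175) and M2 (0.69 ± 0.10, adjusted p = 2.65e-05). They were lower in MPNST-CM in Mφ (-1.75 ± 0.11, adjusted p = 7.72e-13) and M2 (-0.77 ± 0.10, adjusted p = 1.22e-06). By level, M2 TRAP1 KO control and M2 WT MPNST-CM overlapped at the top, Mφ WT MPNST-CM came next, M2 WT control, Mφ TRAP1 KO control and M2 TRAP1 KO MPNST-CM followed with overlaps, and Mφ WT control and Mφ TRAP1 KO MPNST-CM were lowest and apart.

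Il18, which encodes an inflammasome substrate, rose with MPNST-CM in TRAP1 KO cells, and its change did not pass the threshold in WT cells. In Mφ it was at 22.1, 25.0 and 26.9995 CPM in WT control, 22.5, 15.9 and 19.4 CPM in WT MPNST-CM, 22.1, 21.1 and 18.5 CPM in TRAP1 KO control and 46.1, 49.3 and 46.1 CPM in TRAP1 KO MPNST-CM libraries. The last group stood alone and the other 3 overlapped. In M2 it was at 4.81, 6.61 and 5.48 CPM in WT control, 5.66, 6.46 and 10.4 CPM in WT MPNST-CM, 7.50, 7.63 and 5.52 CPM in TRAP1 KO control and 31.5, 28.7 and 33.3 CPM in TRAP1 KO MPNST-CM libraries, and again the last group stood alone. MPNST-CM raised Il18 2.29-fold in TRAP1 KO Mφ (1.19 ± 0.16, adjusted p = 6.39e-07) and 4.52-fold in TRAP1 KO M2 (2.18 ± 0.18, adjusted p = 1.32e-10). In WT cells the differences were -0.36 ± 0.16 in Mφ (adjusted p = 0.114) and 0.41 ± 0.20 in M2 (adjusted p = 0.160). The responses differed by 1.55 ± 0.22 in Mφ (adjusted p = 6.75e-06) and 1.77 ± 0.27 in M2 (adjusted p = 2.30e-05). With the batch 2 libraries the rise in TRAP1 KO M2 became 0.059 (adjusted p = 0.966), or 0.75 with batch as a covariate (adjusted p = 0.477), and the M2 difference between responses became -0.41.

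Nlrp3, the sensor, moved less. In Mφ it was at 43.8, 50.2 and 49.1 CPM in WT control, 29.5, 52.8 and 48.95 CPM in WT MPNST-CM, 36.1, 39.006 and 37.6 CPM in TRAP1 KO control and 53.4, 70.1 and 65.3 CPM in TRAP1 KO MPNST-CM libraries. WT replicate 1 in MPNST-CM lay well under the other 2 of its group. In M2 it was at 20.4, 18.7 and 18.3 CPM in WT control, 25.1, 31.5 and 37.6 CPM in WT MPNST-CM, 13.8, 11.2 and 18.5 CPM in TRAP1 KO control and 44.7, 42.1 and 38.98 CPM in TRAP1 KO MPNST-CM libraries. Both genotypes in M2 were higher in MPNST-CM with no overlap, whereas in Mφ this was so in the knockout.

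Nlrp3 rose by 0.74 ± 0.17 in TRAP1 KO Mφ (adjusted p = 0.00142), by 1.53 ± 0.19 in TRAP1 KO M2 (adjusted p = 4.45e-07) and by 0.72 ± 0.19 in WT M2 (adjusted p = 0.00553), and it differed by -0.12 ± 0.17 in WT Mφ (adjusted p = 0.683). The responses differed by genotype by 0.87 ± 0.24 in Mφ (adjusted p = 0.0119) and by 0.81 ± 0.27 in M2 (adjusted p = 0.0318). The M2 difference lost its call without any WT control library, replicates 1 or 2 of WT or TRAP1 KO in MPNST-CM, or replicates 1 or 2 of TRAP1 KO in control medium (adjusted p 0.0542 to 0.149), and became -0.45 with the batch 2 libraries, where the rise in TRAP1 KO M2 was 0.32 (adjusted p = 0.683). In MPNST-CM, TRAP1 KO Mφ exceeded WT Mφ by 0.52 ± 0.17 (adjusted p = 0.0172). Without WT replicate 1 this was 0.31 (adjusted p = 0.114), and it was also lost without TRAP1 KO replicate 2 or 3 (adjusted p = 0.0820 and 0.0542). In M2 the genotype difference in MPNST-CM was 0.42 ± 0.18 (adjusted p = 0.0706). Mφ TRAP1 KO in MPNST-CM stood alone at the top, the M2 control groups overlapped at the bottom, and the groups between overlapped their neighbours.

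Tnf, an early secreted cytokine of activated macrophages, rose with MPNST-CM in WT Mφ and fell in both TRAP1 KO cell states. It was at 26.9, 32.2 and 31.1 CPM in Mφ WT control, 57.3, 45.1 and 52.4 CPM in WT MPNST-CM, 29.8, 26.8 and 30.4 CPM in TRAP1 KO control and 19.5, 21.5 and 19.9 CPM in TRAP1 KO MPNST-CM libraries. The genotypes overlapped in control medium and lay on opposite sides of it in MPNST-CM. In M2 it was at 22.2, 24.5 and 23.7 CPM in WT control, 23.5, 24.6 and 19.4 CPM in WT MPNST-CM, 21.3, 31.6 and 27.6 CPM in TRAP1 KO control and 11.8, 13.4 and 16.1 CPM in TRAP1 KO MPNST-CM libraries. There the knockout in MPNST-CM alone stood apart, below the others.

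Tnf rose 1.72-fold in WT Mφ (0.78 ± 0.13, adjusted p = 7.41e-05). It fell 1.43-fold in TRAP1 KO Mφ (-0.51 ± 0.14, adjusted p = 0.00436) and 1.95-fold in TRAP1 KO M2 (-0.96 ± 0.14, adjusted p = 4.19e-06), and differed by -0.06 ± 0.14 in WT M2 (adjusted p = 0.812). The responses differed by -1.29 ± 0.19 in Mφ (adjusted p = 9.12e-06) and -0.90 ± 0.20 in M2 (adjusted p = 0.00146). Mφ WT in MPNST-CM was the highest group and M2 TRAP1 KO in MPNST-CM the lowest, both apart from their neighbours, and each of the 6 groups between overlapped the next.

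TRAP1 KO and WT cells were next compared within each medium. In Mφ in control medium 2 of 7 transcripts were higher in the knockout (Il1rn and Il10) and none lower, against 8.64% and 7.97% of all genes. In Mφ in MPNST-CM 3 were higher (Il1b, Il18 and Nlrp3) and 2 lower (Il1rn and Tnf), against 19.1% and 19.2%. In M2 in control medium Il1rn was higher and 2 were lower (Il1b and Ptgs2), against 8.56% and 7.87%. In M2 in MPNST-CM 2 were higher (Il1b and Il18) and 3 lower (Il1rn, Tnf and Ptgs2), against 17.2% and 16.8%. In MPNST-CM, Il1b differed by 1.75 ± 0.15 in Mφ (adjusted p = 6.44e-10), and Il18 by 1.29 ± 0.16 in Mφ (adjusted p = 1.87e-07) and 2.05 ± 0.17 in M2 (adjusted p = 4.27e-10). Tnf differed by -1.35 ± 0.13 in Mφ (adjusted p = 6.73e-09) and -0.71 ± 0.14 in M2 (adjusted p = 0.000320). The medium and genotype comparisons share groups, so these values are not independent of those above.

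**Figure D3:**
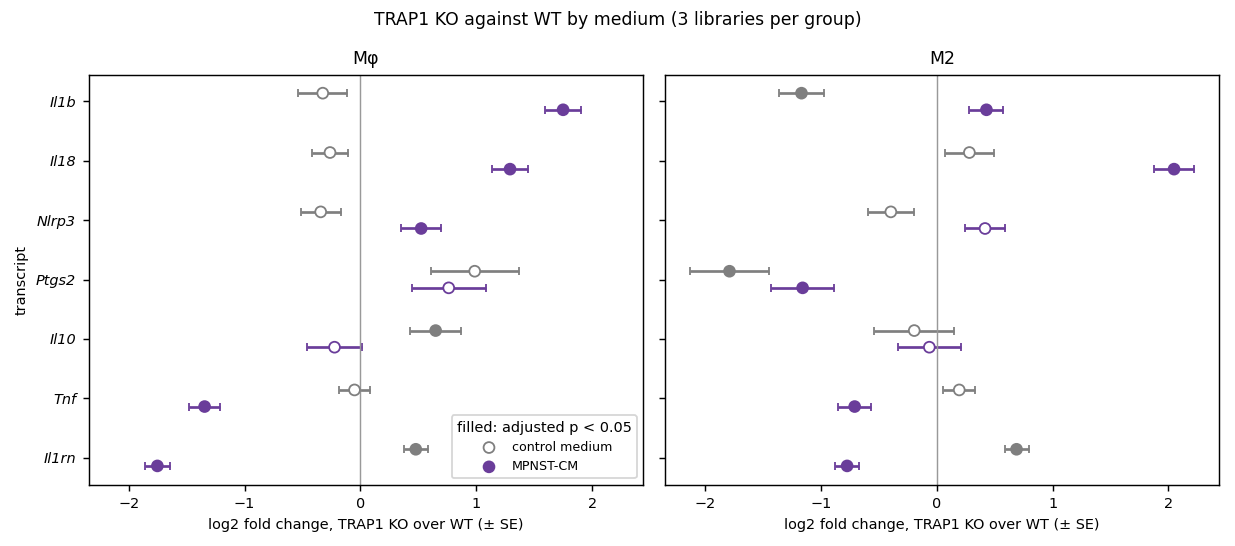
Log2 fold change of TRAP1 KO over WT with SE, in Mφ (left) and M2 (right). Grey is control medium, purple MPNST-CM, and filled points passed an adjusted p of 0.05. In MPNST-CM Il1b, Il18 and Nlrp3 lie to the right of 0 and Tnf and Il1rn to the left, while in control medium Il1rn lies to the right, at 0.48 in Mφ and 0.69 in M2.

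Il6 and Il10 signal through related Janus kinase and STAT pathways. Il6 had 7, 4 and 2 counts in M2 TRAP1 KO libraries in MPNST-CM and 0 to 3 in all others, with none in 12 libraries. No test of Il6 was made at this depth. Il10 was detected in every library, at 7 to 77 counts. It was highest in Mφ TRAP1 KO in control medium, at 7.38, 7.72 and 10.1 CPM, where WT held 5.15, 5.08 and 5.81 CPM. This difference of 0.65 ± 0.22 (adjusted p = 0.0451) did not overlap between libraries, but the call was lost under 24 of 32 alternative settings, among them the omission of any library of either group but TRAP1 KO replicate 1 (adjusted p 0.0667 to 0.232). MPNST-CM lowered Il10 2.06-fold in TRAP1 KO Mφ (-1.04 ± 0.23, adjusted p = 0.000690), to 4.24, 4.50 and 3.44 CPM. In WT Mφ, at 4.98, 5.30 and 3.99 CPM, the difference was -0.17 ± 0.23 (adjusted p = 0.669).

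In M2 cells Il10 lay lower, at 1.46 ± 0.49 CPM in WT and 1.27 ± 0.30 CPM in TRAP1 KO control libraries. MPNST-CM raised it to 2.65 ± 0.58 CPM in WT (0.87 ± 0.30, adjusted p = 0.0360) and 2.52 ± 0.59 CPM in TRAP1 KO M2 (1.00 ± 0.31, adjusted p = 0.0125). The WT call was lost without WT replicate 1 or 2 in MPNST-CM or WT replicate 3 in control medium (adjusted p 0.0905 to 0.180), and under the replicate block, DESeq2 and others. The knockout call was lost without replicate 2 of either medium (adjusted p = 0.0603 and 0.0684). All 4 Mφ groups lay above all 4 M2 groups, with Mφ TRAP1 KO control apart at the top.

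Ptgs2, which makes the prostaglandin precursor, was highest in M2 WT in MPNST-CM, at 11.1, 11.5 and 14.7 CPM. M2 WT in control medium had 7.81, 4.92 and 6.46 CPM, a rise of 0.96 ± 0.27 (adjusted p = 0.00993). It was lost without replicate 3 of either group (adjusted p = 0.0566 and 0.0585). TRAP1 KO M2 rose from 2.55, 1.21 and 1.79 CPM to 6.22, 7.34 and 3.04 CPM (1.59 ± 0.34, adjusted p = 0.000457). The knockout lay below WT in both media, with log2 fold changes of -1.79 ± 0.34 in control medium (adjusted p = 0.000442) and -1.16 ± 0.27 in MPNST-CM (adjusted p = 0.00155). With the batch 2 libraries the difference in control medium became 0.072 and the rise in TRAP1 KO M2 became -0.47. In Mφ the groups held 0.981 to 5.48 CPM and no comparison of medium or genotype passed the threshold, with adjusted p from 0.0612 to 0.118.

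Nos2 had its highest level in M2 WT cells in control medium, with 11, 19 and 11 counts (1.89 ± 0.50 CPM). In M2 WT cells in MPNST-CM all 3 libraries had 0 counts. Set against 3 counts per library, or 0.373 CPM, Nos2 was at least 5.05-fold lower there. TRAP1 KO M2 in control medium had 1, 1 and 0 counts, so WT was 20.4-fold higher by summed counts scaled for depth. No interval is given for this ratio. The libraries of M2 WT in control medium lay above those of both groups, which is a description, since that level admitted Nos2. Fitted fold changes for such counts depend on the prior count and are not given. In Mφ, TRAP1 KO control libraries had 9, 3 and 11 counts and the other groups 0 to 6 counts per library. M2 WT in control medium was also the group with the highest sum over 9 neutrophil markers, 17.4 to 21.6 CPM, against 1.88 to 13.8 CPM in the other groups, and 3 of the 9 were under 3 counts in each of its libraries. Mφ TRAP1 KO in control medium, second in Nos2, had the lowest neutrophil sum, 1.88 to 2.63 CPM. The sum over 5 mast cell or basophil markers was 3.76 to 5.31 CPM in M2 WT control and 3.00 to 5.24 CPM in Mφ TRAP1 KO control libraries. It was 0 to 4.28 CPM in the other groups. The part of either kind of cell in the Nos2 counts was not tested.

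Il18 and Nlrp3 were lower in M2 than in Mφ cells in all 4 pairs of groups, although for Nlrp3 in WT cells in MPNST-CM the libraries overlapped. In WT cells in control medium all 7 transcripts were called between M2 and Mφ: Il1b, Il1rn and Ptgs2 higher and Il10, Il18, Nlrp3 and Tnf lower, against 19.1% and 18.1% of all genes. In TRAP1 KO cells in control medium Il1rn was higher and Il10, Il18 and Nlrp3 lower, against 15.6% and 12.9%. In MPNST-CM, WT M2 cells had higher Il1b and Ptgs2 and lower Il10, Il18, Nlrp3 and Tnf, against 11.9% and 13%, and TRAP1 KO M2 cells had higher Il1rn and lower Il18, Nlrp3 and Tnf, against 6.71% and 4.47%. The log2 fold change of Il18, M2 over Mφ, was -2.12 ± 0.19 in WT control cells (adjusted p = 4.62e-10), -1.58 ± 0.18 in TRAP1 KO control cells (adjusted p = 1.15e-07), -1.36 ± 0.18 in WT MPNST-CM cells (adjusted p = 1.30e-06) and -0.60 ± 0.15 in TRAP1 KO MPNST-CM cells (adjusted p = 0.00858). With the batch 2 libraries the value in TRAP1 KO control cells became 0.33. Nlrp3 differed by -1.32 ± 0.18 in WT and -1.37 ± 0.19 in TRAP1 KO control cells (adjusted p = 2.69e-06 and 3.71e-06), the latter -0.31 with the batch 2 libraries (adjusted p = 0.672).

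In control medium IL-4 raised Il1b by 1.16 ± 0.19 (adjusted p = 1.42e-05) and Ptgs2 by 2.19 ± 0.34 (adjusted p = 1.07e-05) in WT cells. In TRAP1 KO cells the differences were 0.32 ± 0.22 (adjusted p = 0.299) and -0.59 ± 0.37 (adjusted p = 0.263). Whether the response to IL-4 differed by genotype was not tested. Nos2 had 11, 19 and 11 counts in WT M2 and 2, 6 and 0 counts in WT Mφ. In TRAP1 KO control cells it had 9, 3 and 11 counts in Mφ and 1, 1 and 0 in M2, 10.6-fold higher in Mφ by summed counts scaled for depth. This is a description, since Nos2 was tested only because M2 WT in control medium passed the filter. The fitted call was lost without Mφ replicate 1 or 3 or any M2 replicate. Several smaller IL-4 differences also rested on single libraries. Nlrp3 in WT cells in MPNST-CM (-0.48 ± 0.17, adjusted p = 0.0476, libraries overlapping) was lost under 26 of 32 settings. Tnf in WT control cells (-0.35 ± 0.14, adjusted p = 0.0421) was lost without any WT M2 replicate or WT Mφ replicate 2 or 3 (adjusted p 0.0533 to 0.136). Nlrp3 in TRAP1 KO cells in MPNST-CM (-0.59 ± 0.17, adjusted p = 0.0259) was lost without any M2 replicate or Mφ replicate 2 or 3 (0.0522 to 0.126). There, Tnf (-0.56 ± 0.14, adjusted p = 0.0101) was lost without M2 replicate 1 or Mφ replicate 2 (0.0808 and 0.0527), and Il18 without M2 replicate 2 (0.0544). Il10 in WT cells in MPNST-CM (-0.84 ± 0.25, adjusted p = 0.0142) was lost without Mφ replicate 2 or M2 replicate 3 (0.0553 and 0.0906).

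The levels of the members were compared over only 8 group means of log2 CPM, as a description, and no test of the correlations was made. Il18 and Nlrp3 had the highest correlation among the 6 members of at least 10 CPM (Pearson r = 0.897), and Il1rn ran opposite to Il18 (-0.740) and Nlrp3 (-0.667). Among 3265 genes that reached 10 CPM and ranged over at least 1 log2 unit, the closest to Il1b were Klf7, Iars and Clec4n (0.987, 0.987 and 0.986). Close to Il18 were Tut7 and Irf7 (0.985 and 0.978), and the closest to Nlrp3 were Ly6a, Nfatc2 and Ly6e (0.986, 0.985 and 0.984). For Tnf they were Ahsa1, Rhno1 and Slc25a10 (0.951, 0.950 and 0.947) and for Ptgs2 Senp3, Pim3 and Zfp28 (0.943, 0.936 and 0.932). Il1rn had the weakest neighbours, Aven, Sms and Rdh13 (0.894, 0.870 and 0.870).

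Genes around these cytokines were counted in 9 lists of 137 genes, of which 111 were tested. Between genotypes in MPNST-CM, 19.1% of all genes were higher and 19.2% lower in TRAP1 KO Mφ, and 17.2% and 16.8% in TRAP1 KO M2. In control medium these shares were 8.64% and 7.97% in Mφ and 8.56% and 7.87% in M2. Medians of all genes lay between 0.02 and 0.05 on the log2 scale. The counts of each list stand below for both media, and no list was tested as a set.

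Of 19 inflammasome genes, 8 were higher and 1 lower in MPNST-CM in TRAP1 KO Mφ, with 3 and 2 in control medium. In M2, 7 were higher and 1 lower in MPNST-CM, and 3 and 3 in control medium. The list medians in MPNST-CM were 0.22 and 0.32. Txnip, which binds NLRP3, was at 1743 ± 79.8 CPM in TRAP1 KO and 455 ± 81.4 CPM in WT Mφ in MPNST-CM (1.94 ± 0.13, adjusted p = 7.45e-12), and differed by 0.27 in control medium (adjusted p = 0.146). Ninj1, which ruptures the membrane of dying cells, was higher in TRAP1 KO Mφ in both media, by 0.97 ± 0.12 in MPNST-CM (adjusted p = 5.75e-07) and 0.79 ± 0.12 in control medium (adjusted p = 3.96e-05). The test of whether the media differed in this was not passed (adjusted p = 0.541). Gsdme, a pore-forming gasdermin, rose with MPNST-CM in TRAP1 KO Mφ from 15.7 ± 3.75 to 93.7 ± 10.1 CPM (2.58 ± 0.13, adjusted p = 7.60e-15) and by 0.60 in WT Mφ (adjusted p = 0.000802).

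Among 14 Toll-like receptors and co-receptors, 7 were higher and 2 lower in MPNST-CM in TRAP1 KO Mφ (against 19.1% and 19.2% of all genes), and 5 and 1 in control medium (8.64% and 7.97%). In M2, 8 were higher and 2 lower in MPNST-CM (17.2% and 16.8%), and 4 and 0 in control medium (8.56% and 7.87%). Their medians were 0.41 and 0.53 in MPNST-CM and 0.38 and 0.22 in control medium. Cd14, the lipopolysaccharide co-receptor, rose with MPNST-CM from 417 ± 43.6 to 1761 ± 17.7 CPM in TRAP1 KO M2 (2.08 ± 0.16, adjusted p = 5.54e-10) and by 1.58 in WT M2 (adjusted p = 1.04e-07). The flagellin receptor Tlr5 rose by 3.69 ± 0.43 in TRAP1 KO Mφ (adjusted p = 1.93e-07) and differed by 1.01 in WT Mφ (adjusted p = 0.0706). Tlr1 fell in TRAP1 KO Mφ by 1.27 ± 0.11 on the log2 scale (adjusted p = 2.16e-10) and differed by -0.18 in WT Mφ (adjusted p = 0.267).

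Of 13 prostanoid genes, 2 were higher and 7 lower in MPNST-CM in TRAP1 KO Mφ (19.1% and 19.2% of all genes), and 1 and 4 in control medium (8.64% and 7.97%). In M2, 1 was higher and 7 lower in MPNST-CM (17.2% and 16.8%), and 1 and 3 in control medium (8.56% and 7.87%). Medians were -0.52 and -0.74 in MPNST-CM and -0.35 and -0.23 in control medium. The prostaglandin E2 receptor Ptger4 fell with MPNST-CM in TRAP1 KO Mφ from 40.0 ± 4.22 to 4.12 ± 0.865 CPM (-3.28 ± 0.16, adjusted p = 5.69e-15) and by 1.29 on the log2 scale in WT Mφ (adjusted p = 1.08e-07). The receptor Ptger2 rose in TRAP1 KO Mφ from 10.1 ± 0.751 to 75.4 ± 6.79 CPM (2.90 ± 0.17, adjusted p = 2.59e-13), where WT Mφ differed by -0.15 (adjusted p = 0.618). Hpgd, which degrades prostaglandins, changed by -3.11 ± 0.29 in TRAP1 KO Mφ (adjusted p = 2.74e-09) and by -2.43 in WT Mφ (adjusted p = 2.84e-07).

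**Figure D4:**
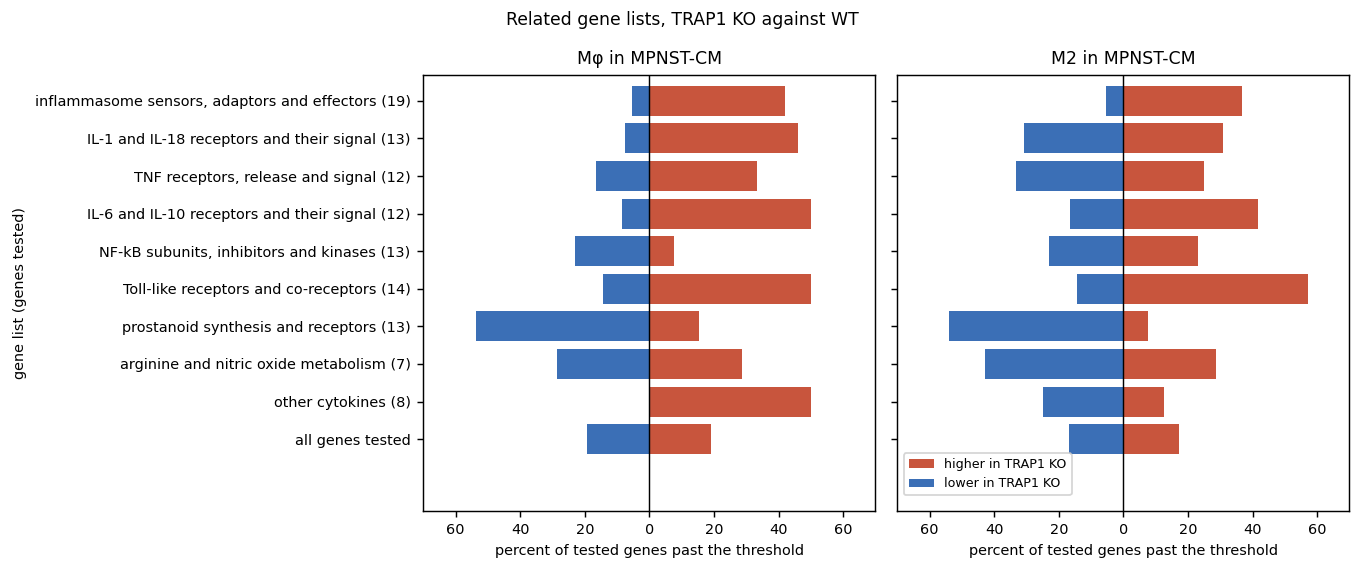
Percent of the tested genes of each list that passed an adjusted p of 0.05 between TRAP1 KO and WT in MPNST-CM, in Mφ (left) and M2 (right). Red bars to the right are higher in TRAP1 KO, blue bars to the left lower, and the bottom bars are all genes tested, 19.1% and 19.2% in Mφ. In Mφ 8 of 19 inflammasome and 7 of 14 Toll-like receptor genes were higher, and 7 of 13 prostanoid genes were lower.

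Of 13 genes of IL-1 and IL-18 reception, 6 were higher and 1 lower in MPNST-CM in TRAP1 KO Mφ (19.1% and 19.2% of all genes), and 1 and 3 in control medium (8.64% and 7.97%). In M2, 4 were higher and 4 lower in MPNST-CM (17.2% and 16.8%), and 1 and 5 in control medium (8.56% and 7.87%). The decoy receptor Il1r2 went from 0.125 ± 0.217 to 14.8 ± 1.90 CPM with MPNST-CM in TRAP1 KO Mφ (adjusted p = 1.10e-11) and rose by 2.54 in WT Mφ (adjusted p = 8.36e-06). The signalling receptor Il1r1 rose in TRAP1 KO M2 (2.63 ± 0.34, adjusted p = 4.64e-07) and differed by 0.35 in WT M2 (adjusted p = 0.490). The IL-33 receptor Il1rl1 was at 3.07 ± 0.713 CPM in TRAP1 KO against 37.9 ± 2.56 CPM in WT M2 in MPNST-CM (-3.63 ± 0.21, adjusted p = 2.48e-13), and was lower in control medium too (-2.39, adjusted p = 6.52e-11).

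Of 12 genes of IL-6 and IL-10 reception, 6 were higher and 1 lower in Mφ in MPNST-CM, and 5 and 0 in control medium. In M2, 5 were higher and 2 lower in MPNST-CM, and 1 and 4 in control medium. The shares over all genes are those given for the preceding lists. Socs1, an inhibitor of JAK signalling, was lower in TRAP1 KO M2 in control medium (-3.90 ± 0.31, adjusted p = 8.36e-10) and in MPNST-CM (-2.99, adjusted p = 2.08e-09). Socs3, another such inhibitor, rose with MPNST-CM in TRAP1 KO M2 (3.09 ± 0.27, adjusted p = 5.37e-10) and in WT M2 (1.57, adjusted p = 1.93e-05).

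The TNF list had 4 of 12 genes higher and 2 lower in MPNST-CM in TRAP1 KO Mφ (19.1% and 19.2% of all genes), and 4 and 0 in control medium. In M2, 3 were higher and 4 lower in MPNST-CM (17.2% and 16.8%), and 3 and 1 in control medium. Tnfrsf1b, the second TNF receptor, fell with MPNST-CM in both genotypes and cell states. In TRAP1 KO M2 it went from 977 ± 69.4 to 215 ± 11.6 CPM (-2.18 ± 0.09, adjusted p = 1.81e-16), and the change was -1.40 in WT M2, -1.05 in WT Mφ and -1.33 in TRAP1 KO Mφ. Adam17, which sheds TNF, fell in TRAP1 KO M2 (-1.19 ± 0.09, adjusted p = 5.58e-11) and in WT M2 (-0.58, adjusted p = 2.75e-05). Tnfaip3, a brake on NF-kB, fell in TRAP1 KO Mφ (-1.65 ± 0.31, adjusted p = 0.000265) and differed by -0.13 in WT Mφ (adjusted p = 0.836).

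Of 13 NF-kB subunits, inhibitors and kinases, 1 was higher and 3 lower in MPNST-CM in TRAP1 KO Mφ (19.1% and 19.2% of all genes), and 2 and 0 in control medium. In M2, 3 were higher and 3 lower in MPNST-CM (17.2% and 16.8%), and 1 and 3 in control medium. Nfkbiz, an atypical IκB, was higher in TRAP1 KO than WT M2 in MPNST-CM (1.66 ± 0.16, adjusted p = 4.07e-09) and in control medium (1.297, adjusted p = 1.64e-05). With MPNST-CM Nfkbid fell in TRAP1 KO M2 (-1.28 ± 0.15, adjusted p = 6.26e-08) and differed by -0.33 in WT M2 (adjusted p = 0.0840). Relb fell in TRAP1 KO Mφ (-1.20 ± 0.13, adjusted p = 1.69e-08) and in WT Mφ (-0.40, adjusted p = 0.0217).

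Of 7 tested genes of arginine and nitric oxide metabolism, 2 were higher and 2 lower in MPNST-CM in TRAP1 KO Mφ (19.1% and 19.2% of all genes), and 2 and 0 in control medium. In M2, 2 were higher and 3 lower in MPNST-CM (17.2% and 16.8%), and 1 and 4 in control medium. Arg1, arginase, which uses the substrate of Nos2, rose with MPNST-CM in TRAP1 KO M2 from 4.89 ± 0.704 to 228 ± 7.03 CPM (5.55 ± 0.25, adjusted p = 2.54e-13) and by 2.78 in WT M2 (adjusted p = 9.22e-10). The highest Arg1 of any library, 674 CPM, was in WT M2 in MPNST-CM. The larger rise in TRAP1 KO M2 thus started from a low control level and ended below that. Ass1, which remakes arginine, fell in TRAP1 KO Mφ (-2.74 ± 0.28, adjusted p = 6.67e-09) and differed by -0.44 in WT Mφ (adjusted p = 0.144). The arginine carrier Slc7a2 was lower in TRAP1 KO than WT M2 in MPNST-CM (-2.72 ± 0.19, adjusted p = 7.20e-12) and in control medium (-1.75, adjusted p = 3.18e-08).

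Of 8 tested other cytokines, 4 were higher and 0 lower in MPNST-CM in TRAP1 KO Mφ (19.1% and 19.2% of all genes), and 3 and 0 in control medium. In M2, 1 was higher and 2 lower in MPNST-CM (17.2% and 16.8%), and 2 and 1 in control medium. With MPNST-CM Osm and Tnfsf14 rose in TRAP1 KO M2 (2.61 ± 0.33 and 3.28 ± 0.36, adjusted p = 6.80e-07 and 2.56e-08) and in WT M2 (2.58 and 3.24, adjusted p = 2.89e-07 and 3.37e-07). Il15 was higher in TRAP1 KO than WT M2 in MPNST-CM (1.34 ± 0.10, adjusted p = 2.24e-11) and in control medium (0.48, adjusted p = 0.00136). The genes named from the lists were taken for the size of their change, with their values known.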

How the data were processed

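QuantSeq 3′ mRNA libraries were deposited as raw counts per gene. Per the labels and the study's methods, the authors trimmed reads with Trimmomatic, mapped them with HISAT2, filtered with SAMtools and counted with featureCounts; versions are not given in the sources used here. The labels give mm39 and the methods text another mouse build. Columns were matched to samples through the library file named in the labels, and 5 unmatched columns were not used. The 24 batch 1 libraries were fitted together in edgeR 4.0.16 (8 group means, TMM, filter on low counts by group, robust quasi-likelihood F test, 16 residual degrees of freedom, in R 4.3.3). Benjamini-Hochberg adjustment ran over 13614 genes at 0.05. SE was the absolute log2 fold change over the square root of F. The script was tested on simulated data. DESeq2 1.42.0, median-of-ratios scaling, no filter, other sample sets and a replicate block were alternatives. Log2 CPM used a prior count of 2, and floors are 3 counts per library. The genes, lists and motifs were chosen with earlier results of these data known. Named were all 10 members and, per list, the 3 called genes of largest absolute change in a medium or genotype comparison with at least 10 CPM in the higher group; some genes that the rules select are not reported here.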

Additional observations from a re-analysis of the deposited data

Results flagged for a closer look

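A library counted as far from its group where, among 4 libraries, its gap to the nearest exceeded Dixon's limit, which chance passes in about 1 group in 20. Of 30 groups of 4 over the 27 libraries, 7 met this limit and about 1.5 would be by chance. In the library labelled M2 TRAP1 KO in control medium, replicate 4, of batch 2, these were Il1b at 129 CPM (the others 3.24 to 5.97), Il18 at 78.6 (5.42 to 7.48), Nlrp3 at 74.2 (11 to 18.2), Ptgs2 at 20.4 (1.18 to 2.51) and Il1a at 6.61 CPM (0.147 to 0.407). In the library labelled M2 TRAP1 KO in MPNST-CM, replicate 4, Il1rn was at 70.8 CPM (50.8 to 52.3). Il6 in Mφ WT in control medium, replicate 2, was at 0.131 CPM, a single count where the others had 0.

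The response to MPNST-CM differed between TRAP1 KO and WT cells, by edgeR's test of the difference. In Mφ the log2 fold change in TRAP1 KO minus that in WT was 2.07 for Il1b (adjusted p = 9.18e-07), 1.55 for Il18 (6.75e-06), 0.87 for Nlrp3 (0.0119), -1.29 for Tnf (9.12e-06) and -2.23 for Il1rn (1.94e-11). In M2 it was 1.60 for Il1b (1.59e-05), 1.77 for Il18 (2.30e-05), 0.81 for Nlrp3 (0.0318), -0.90 for Tnf (0.00146) and -1.46 for Il1rn (2.49e-08). For Nos2 in M2 the fitted value was 8.19. It depends on the prior count, because all M2 WT libraries in MPNST-CM had 0 counts, and it involves the group through which Nos2 passed the filter, so no test of it is given.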

How the results depend on the processing

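Of 72 calls among 112 tests of 8 members, 27 held under all 32 alternatives, and 16 were lost on leaving out at least 1 single library. Among the 72 are 5 calls of Nos2, which passed the filter only through M2 WT in control medium. That group enters each of those calls except IL-4 in TRAP1 KO control cells. Median-of-ratios scaling and the replicate block kept 70 each, DESeq2 68, no filter 67, the compared groups alone 66 and 25 libraries 70. Same-numbered libraries deviated together more than others: 34 of 77 such pairs correlated above 0.1 (mean r 0.107, lowest -0.214), against 30 of 175 other pairs (mean r -0.0451). The labels do not say what a number marks and not every pair passed 0.1, so the numbers were not taken as pairing. Under the replicate block Il10 in WT M2 with medium (adjusted p = 0.0563) and Tnf in WT control cells with IL-4 (0.0543) lost their calls. In batch 1 the number 4 stands only on a WT M2 control library, so the block removes that library from its group mean. Both lost calls involve that group, so a replicate effect and the loss of a library cannot be told apart there.

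The 27 libraries changed most, and calls over all genes fell in every comparison too, so the falls below are not particular to the members. Without and with batch as a covariate, the genes called for genotype in M2 MPNST-CM were 1681 and 1839, against 4627. For the medium in WT M2 they were 1014 and 1210, against 3330. For genotype in Mφ control they were 854 and 843, against 2261. Without and then with batch as a covariate, the members called were 3 and 3 for the medium in TRAP1 KO Mφ, 2 and 3 in WT M2, 3 and 3 in TRAP1 KO M2; for genotype 0 and 1 in Mφ control, 2 and 2 in Mφ MPNST-CM, 2 and 2 in M2 control, 2 and 3 in M2 MPNST-CM; for IL-4 3 and 2 in TRAP1 KO control, 2 and 3 in WT MPNST-CM, 1 and 1 in TRAP1 KO MPNST-CM, and 5 with the covariate in WT control; and for genotype by medium 2 and 2 in Mφ and 1 and 1 in M2. Genotype in Mφ control also gave 1 under median-of-ratios scaling, no filter and DESeq2. Without the covariate 8 values changed sign: Il1b genotype by medium in M2 -1.52, genotype in M2 control 1.73 and medium in TRAP1 KO M2 -0.20; Il18 IL-4 in TRAP1 KO control 0.33 and genotype by medium in M2 -0.41; Nlrp3 genotype by medium in M2 -0.45; Ptgs2 genotype in M2 control 0.072 and medium in TRAP1 KO M2 -0.47. With it 3 did: Il1b genotype by medium in M2 -0.21 and genotype in M2 control 0.21, and Nlrp3 genotype by medium in M2 -0.16. The cause was not tested.

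Leaving out each library in turn, members called, Nos2 included, ranged from 3 to 4, 6 to 7, 4 to 6 and 6 to 7 for the medium in WT Mφ, TRAP1 KO Mφ, WT M2 and TRAP1 KO M2; from 1 to 2, 4 to 6, 4 to 4 and 4 to 6 for genotype in Mφ control, Mφ MPNST-CM, M2 control and M2 MPNST-CM; from 6 to 8, 4 to 5, 4 to 7 and 2 to 4 for IL-4 in WT control, TRAP1 KO control, WT MPNST-CM and TRAP1 KO MPNST-CM; and from 5 to 6 and 4 to 6 for genotype by medium in Mφ and M2.

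Over all genes, the count called for genotype by medium in M2 was 2751, and 180 and 269 with 27 libraries without and with the covariate; for the medium in TRAP1 KO M2 it was 5016, 826 and 988. With the compared groups alone, the medium in WT Mφ called 1898 genes and IL-4 in WT MPNST-CM 1941, against 2889 and 3392. Leaving out each library in turn, genes called ranged from 4427 to 5302 for genotype in Mφ MPNST-CM, against 5207. For genotype by medium in M2 they ranged from 2232 to 3015. At 7037684 to 9089792 counts a library, Il1a and Il6 did not pass the filter and were not tested, and most Nos2 differences were not called.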
